A study of Mus musculus with 3 samples.

Results

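C0 was 1 of 9 clusters into which the authors sorted the CD8 T cells of this experiment, and it was labelled by its high level of Cd226 and by Gzmb. It was identified in the deposited table of CD8 cells as the cluster number whose cell numbers in every treatment group equal those of C0 in the values behind the study's cell count plot. It held 1710 of 10833 CD8 cells. Its cells came from 9 pools, with 295, 304 and 341 cells in the saline pools, 61, 72 and 77 in the CSA 5 mg/kg pools and 215, 226 and 119 in the CSA 50 mg/kg pools.

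The mice were B6D2F1 recipients that were irradiated and then given B6 bone marrow, B6 T cells and a small number of TEa T cells, which carry a transgenic T cell receptor (TCR) for a peptide of the recipient's MHC class II I-E molecule. Recipients were treated daily from day 0 to day 6 with saline, with cyclosporine (CSA) at 5 mg/kg or with CSA at 50 mg/kg, and spleens were taken on day 7. Each group had 6 mice, combined into 3 pools of 2 mice that carried 1 hashtag antibody each. The 3 pools of a group were loaded in 1 droplet capture, so capture and treatment cannot be told apart, and p-values measure the spread between pools of 1 capture. Sorted CD4+ and CD8+ cells were mixed before capture, and single-cell 5' RNA, TCR sequences, hashtags and surface CD4 and CD8 antibodies were counted as unique molecular identifiers (UMIs). Mouse age is not given in the sources used here.

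CSA enters T cells, binds cyclophilin and blocks calcineurin, the phosphatase that lets NFAT transcription factors enter the nucleus after TCR signalling. NFAT drives cytokine genes such as Il2 and also inhibitory receptor genes, Pdcd1 among them. CD226 is an activating receptor of T and NK cells that binds CD155 and CD112, ligands for which the inhibitory receptor TIGIT competes. Granzyme B, the product of Gzmb, is a protease of cytotoxic granules that triggers death of the target cell. In graft-versus-host disease, donor CD8 T cells that recognize recipient tissue expand and acquire such effector functions.

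The summed UMIs of C0 ran from 877908 to 1041011 per saline pool, from 194868 to 300504 per CSA 5 mg/kg pool and from 658710 to 1162791 per CSA 50 mg/kg pool, so the CSA 5 mg/kg sums were the shallowest. The median C0 cell held 2842.5 UMIs in saline, against 3283 at 5 mg/kg and 4811.5 at 50 mg/kg. Over all pools its median of 3319.5 UMIs was the lowest of the 9 clusters, the next being C5 at 4168. C0 was 15.8% of CD8 cells but held 113 of the 212 CD8 cells under 2000 UMIs. In the CSA 5 mg/kg pools its medians were 3256, 2969.5 and 3630 UMIs, against 5381.5, 6106.5 and 6612.5 over all CD8 cells. Of all CD8 cells, 656 (6.06%) carried a second strong hashtag, meaning one with at least 0.5 of the UMIs of the strongest, and 76 of the C0 cells (4.44%) did. In pools 1, 2 and 3 these C0 cells numbered 0, 9 and 16 in saline and 0, 5 and 12 at 5 mg/kg. At 50 mg/kg they numbered 0, 15 and 19, so pool 1 of each group held none. Among all 21204 cells counted, CD4 and CD8, 218 cell barcodes occurred in more than 1 of the 3 captures, and 39 C0 cells carried such a barcode. Levels between clusters are given as CPM, the UMIs of a gene per 1000000 UMIs of the summed cells. Levels between doses are given as normalized CPM, after scaling by the trimmed mean of M values (TMM), with factors of 1.23 to 1.25 in saline, 0.952 to 0.968 at 5 mg/kg and 0.835 to 0.843 at 50 mg/kg. Scaling by total UMIs alone (total-UMI scaling, whose counts for a gene list are given in brackets, rises before falls) moved the median change of all genes by -0.56 (log2) at 50 mg/kg and by -0.36 at 5 mg/kg, so changes below are relative to the TMM scaling. In summed counts, fewer cells with a transcript and less of it per cell cannot be told apart.

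C0 was first checked against its label. Cd226 was at 489 ± 11.7 CPM (SD, n = 3 pools) in saline C0 cells, which was above the mean of each of the other 8 clusters in saline, the nearest being the cycling cluster C4 at 391 ± 22.1 CPM. It was at 298 ± 11.8 CPM at 5 mg/kg and at 105 ± 7.66 CPM at 50 mg/kg. The naive cluster C7 was at 91.5 ± 4.51, 63.7 ± 21.5 and 59.3 ± 10.6 CPM in the same order of dose. At 5 mg/kg C4 was higher than C0, at 382 ± 26.6 CPM, and at 50 mg/kg C0 had the highest mean of the 8 clusters with a value, though it then held less Cd226 than C1 did in saline (199 ± 29.7 CPM). Since the cells were clustered on the same counts, these levels describe the cluster and were not tested.

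A share of cells with at least 1 UMI rises with depth, so cells were thinned to 2000 UMIs, which left out 59 saline, 48 CSA 5 mg/kg and 6 CSA 50 mg/kg C0 cells. After thinning, Cd226 was found in 59.7% ± 2.02 of saline C0 cells, 39.9% ± 5.15 at 5 mg/kg and 16.9% ± 1.49 at 50 mg/kg. The same shares without thinning were 70.6%, 59.2% and 35.1%. In the naive cluster C7, whose pools had median depths of 3454 to 5198.5 UMIs against 2831 to 4867 in C0, the thinned shares were 16.3% ± 0.930, 9.73% ± 3.84 and 11.7% ± 2.88. Gzmb was found in 93.0% ± 0.985, 90.4% ± 1.85 and 82.8% ± 1.53 of thinned C0 cells, and in 55.0% ± 4.13, 51.7% ± 3.86 and 15.9% ± 6.27 of thinned naive cells. Without thinning, 96.2%, 94.6% and 93.4% of C0 cells had a Gzmb UMI. The naive share of Gzmb differed between captures in the same direction as the C0 share, and its part in the C0 values was not tested.

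Gzmb did not set C0 apart. At 2228 ± 529 CPM over 9 pools it ranked 5 of 9 clusters, and it was higher in C0 than in all other CD8 cells in 3 of 9 pools. Against C1, the non-cycling effector cluster that the authors split from the same parent cluster, Gzmb was higher in 9 of 9 pools, by a median log2 ratio of 0.54. Cd226 was also higher in C0 than in C1 in 9 of 9 pools, by a median log2 ratio of 1.09 and a range of 0.32 to 1.52. The median C1 cell held more UMIs than the median C0 cell in every pool.

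**Figure D1:**
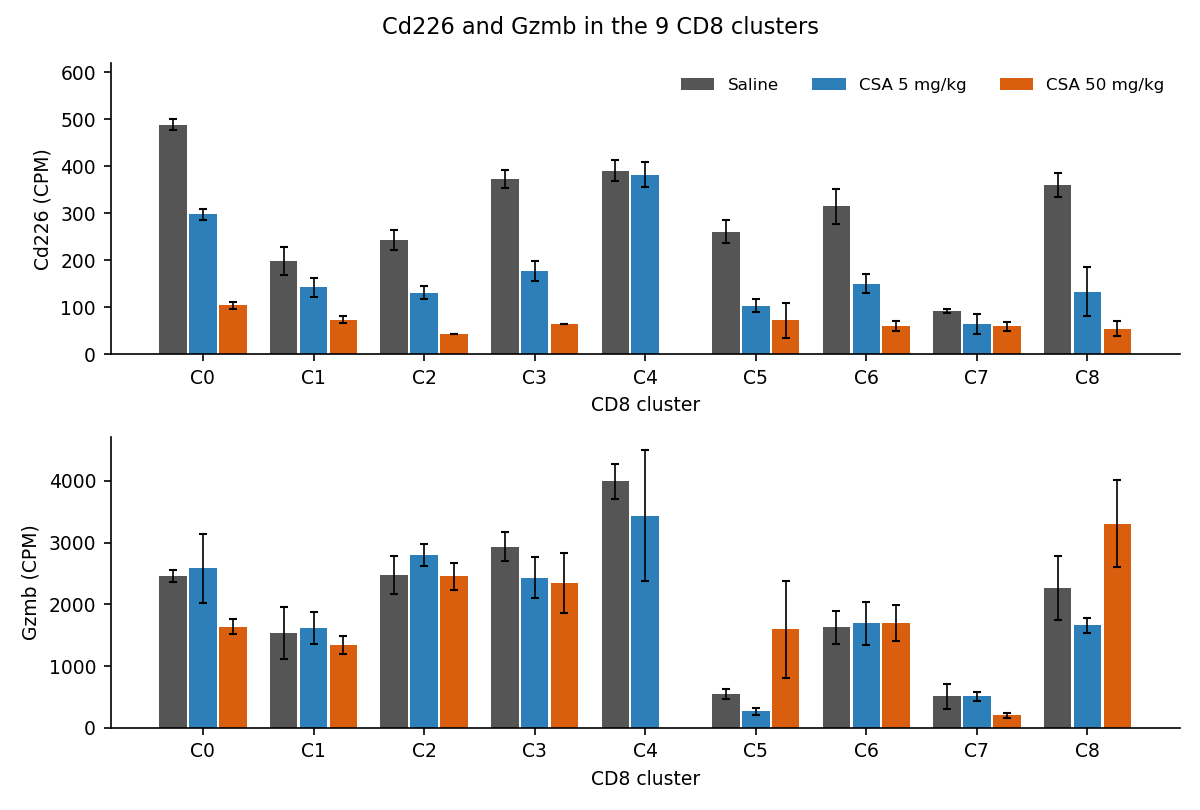
Levels of Cd226 (top) and Gzmb (bottom) in CPM for the 9 CD8 clusters, as bars of the mean of up to 3 pools with the SD, in saline, CSA 5 mg/kg and CSA 50 mg/kg; a bar is left out where fewer than 2 pools had at least 10 cells. Cd226 in C0 was 489 CPM in saline and 105 CPM at 50 mg/kg, and Gzmb was higher in C4 than in C0 in saline.

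C0 cells carried T cell genes at levels among the highest of the clusters, with Cd8b1, a CD8 coreceptor chain, ranking 1 of 9 and Cd3d, Cd3e, Cd3g and Cd8a ranking 3 of 9. The surface CD8 antibody had medians of 63 to 110 UMIs per C0 cell over pools and the CD4 antibody 5 to 10. Every CD8 cell had a UMI of Cd8a or Cd8b1 and none had a Cd4 UMI, so these genes had chosen the cells. Among genes of naive cells, Ccr7 was at 3.25 CPM and Tcf7 at 44.3 CPM on average over pools. Lef1 was not low, at 153 CPM, which ranked 3 of 9 clusters, and in saline it was at 207 ± 12.7 CPM in C0 and 249.8 ± 34.0 CPM in naive C7. The proliferation marker Mki67 was at 103 CPM in C0 and at 714 CPM in the other CD8 cells.

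Among 3292 genes of at least 50 CPM in C0, 477 were higher in C0 than in C1 in all 9 pools (14.5%). Among the highest 10 by median log2 ratio were Ifit1bl1, Fgl2, Etnk1, Rtp4, Gbp9, Cx3cr1, Atf7ip and Gm26917. The first, Ifit1bl1, had a ratio of 2.05. Rtp4 and Gbp9 are interferon-induced genes and Cx3cr1 encodes the fractalkine receptor of effector cells. These genes are among those the clustering used and carry no test.

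C0 made up 20.7, 18.8 and 21.3% of the CD8 cells in the saline pools, 8.82, 8.41 and 6.91% in the CSA 5 mg/kg pools and 19.2, 20.1 and 9.22% in the CSA 50 mg/kg pools. The CSA 5 mg/kg pools were all below the saline pools. CSA 50 mg/kg pool 3 lay near the CSA 5 mg/kg pools and the other 2 lay within or near the saline range. Without pool 3 the CSA 50 mg/kg mean was 19.7%, against 16.2% ± 6.05 with it. Relative to C1, C0 was 72.0 ± 3.25% of the C0 and C1 cells in saline, against 30.3 ± 2.54% at 5 mg/kg and 40.2 ± 10.00% at 50 mg/kg (SD, n = 3 pools). Many genes of C0 differed between doses, and such genes can decide which cells enter the cluster, so these shares are given without a test.

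**Figure D2:**
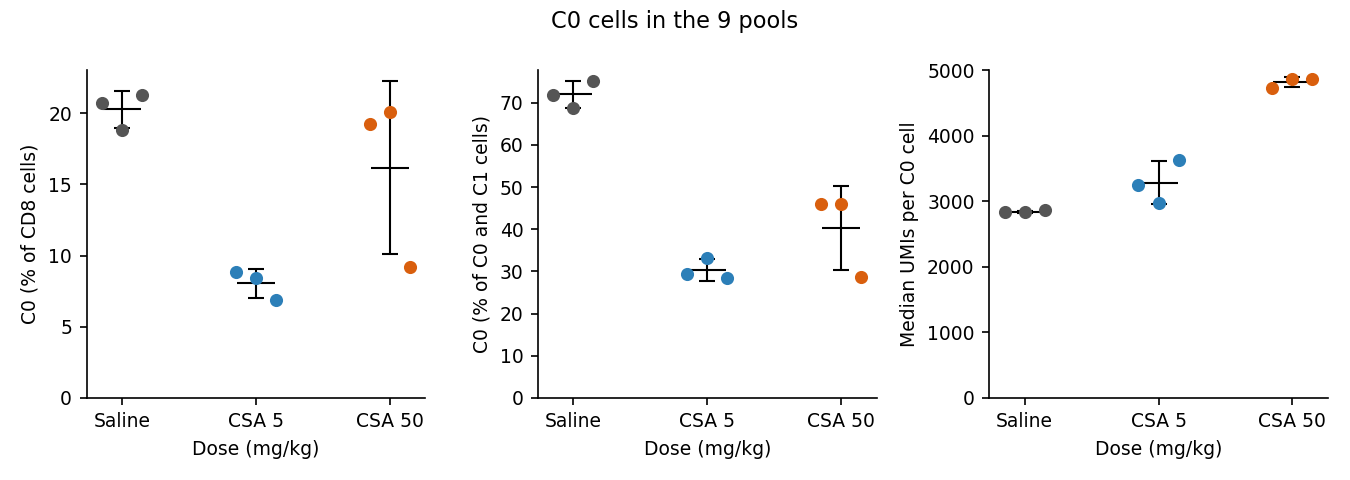
Each point is a pool of 2 mice, with the group mean and SD; the left axis gives C0 as a percent of CD8 cells, the middle axis C0 as a percent of C0 and C1 cells, and the right axis the median UMIs per C0 cell. The CSA 5 mg/kg pools were lowest in share of CD8 cells, and 1 CSA 50 mg/kg pool (9.22%) was apart from the other 2.

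At 50 mg/kg against saline, C0 cells lost transcripts of inhibitory and activating receptors, of the cell cycle and of histones, and gained those of Ccl5, Ly6 and killer lectin-like receptors, S100 proteins, the ribosome and oxidative phosphorylation. Of 7919 genes tested, 2229 rose (28.1%) and 2396 fell (30.3%) at an adjusted p of 0.05 by the quasi-likelihood test of edgeR, after Benjamini-Hochberg adjustment, and the median log2 change of all tested genes was -0.07. With total-UMI scaling, 927 rose and 4580 fell. The counts of each gene list at this dose are to be read beside the 28.1% and 30.3% of all genes. Cells had entered C0 by their expression, in 1 clustering of all doses, so a change within C0 is one among cells that still met it. The pools had a biological coefficient of variation of 0.0402, the spread of a typical gene between pools of a group beyond counting error.

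The gene that names the cluster fell. Cd226 was at normalized CPM of 414, 391 and 397 in the saline pools, 311, 325 and 304 in the CSA 5 mg/kg pools and 136, 125 and 116 in the CSA 50 mg/kg pools. The 3 groups did not overlap, and every CSA 50 mg/kg pool was below every other pool. Its log2 change at 50 mg/kg was -1.65 (SE 0.09, adjusted p = 7.2e-26).

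Among 14 receptors of costimulation, activation and cytokines, 3 rose and 9 fell, with a median log2 change of -0.58 (0 and 11 with total-UMI scaling). Il18r1, a chain of the interleukin-18 receptor, was at 428 ± 34.4 normalized CPM in saline and 111 ± 21.6 at 50 mg/kg, a log2 change of -1.99 (adjusted p = 3.1e-28). The inducible costimulators Tnfrsf9 (4-1BB), Tnfrsf4 (OX40) and Icos had log2 changes of -2.83 (adjusted p = 2.4e-17), -3.51 (adjusted p = 1.4e-09) and -1.03 (adjusted p = 1.0e-10). Il2ra, the high-affinity interleukin-2 receptor chain, fell by 1.35 on the log2 scale (adjusted p = 6.8e-08). Cd28, the constitutive costimulator, was at 219 ± 20.6 normalized CPM in saline and 216 ± 4.74 at 50 mg/kg, a log2 change of -0.01 that did not pass (adjusted p = 0.94), though it was -0.57 (adjusted p = 2.3e-07) with total-UMI scaling. Cd27 had a log2 change of 0.56 (adjusted p = 1.8e-08) that turned to -0.01 with that scaling.

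Of 14 inhibitory receptors 12 fell and 1 rose, with a median log2 change of -1.76 (0 and 12 with total-UMI scaling). Pdcd1, which encodes PD-1, was at normalized CPM of 316, 317 and 301 in the saline pools, 174, 217 and 248 at 5 mg/kg and 4.53, 0 and 16.4 at 50 mg/kg. The saline pools were above the CSA 5 mg/kg pools, and the CSA 50 mg/kg pools were close to 0, with 13 UMIs in all 3 against 1081 in saline. Its log2 change at 50 mg/kg was -5.80 (SE 0.22, adjusted p = 6.0e-35), the largest fall among genes of at least 50 CPM in either group whose pools did not overlap. Of thinned C0 cells, 45.8% ± 0.794 had a Pdcd1 UMI in saline and 0.970% ± 1.01 at 50 mg/kg, where naive C7 cells had 5.05% ± 2.34 and 0.266% ± 0.246. Without thinning, the C0 shares were 55.9% and 2.02%.

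The 250 bases before the start of Pdcd1 are shown because this gene had the largest named fall and the study cites NFAT as raising PD-1 expression. They lie at chr1:94052554-94052803 on the minus strand of GRCm38.p6, outside the transcript, and were read 5′ to 3′ from RefSeq's annotation. Capitals mark matches to the core letters that NFAT proteins are known to bind, GGAAA on either strand, which read TTTCC here.
Pdcd1 promoter: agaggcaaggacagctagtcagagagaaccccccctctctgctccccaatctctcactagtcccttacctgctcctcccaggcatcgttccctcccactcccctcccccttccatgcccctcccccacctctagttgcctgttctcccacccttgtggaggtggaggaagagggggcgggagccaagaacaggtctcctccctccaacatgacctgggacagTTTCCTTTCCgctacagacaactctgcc
The window held 2 matches, which follow each other without a gap. Of 32851 RefSeq mouse promoter windows of the same kind, 18254 (55.6%) held at least 1, so a match is common and is given as a description only. Whether NFAT acts at these matches was not tested.

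Other inhibitory receptors fell too. Lag3, a receptor for MHC class II, was at normalized CPM of 227, 213 and 254 in saline, 158, 253 and 363 at 5 mg/kg and 45.3, 43.5 and 76.4 at 50 mg/kg, with a log2 change of -2.16 (adjusted p = 7.8e-21) at 50 mg/kg. The saline and CSA 5 mg/kg pools of Lag3 overlapped and the CSA 50 mg/kg pools were below both. Havcr2 (TIM-3) and Tigit, which shares its ligands with CD226, had log2 changes of -1.36 (adjusted p = 6.2e-15) and -1.19 (adjusted p = 6.9e-16). The immunoglobulin-like receptor Lilr4b fell by 2.91 on the log2 scale (adjusted p = 7.0e-20), and its close relative Lilrb4a had 75 UMIs in saline but 0 at 50 mg/kg, which is at least 17.2-fold lower against a floor of 3 UMIs over the group. Reads of these near-identical receptors may be split between them. Cd160 had a log2 change of 0.44 (adjusted p = 0.0012) that turned to -0.12 with total-UMI scaling.

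**Figure D3:**
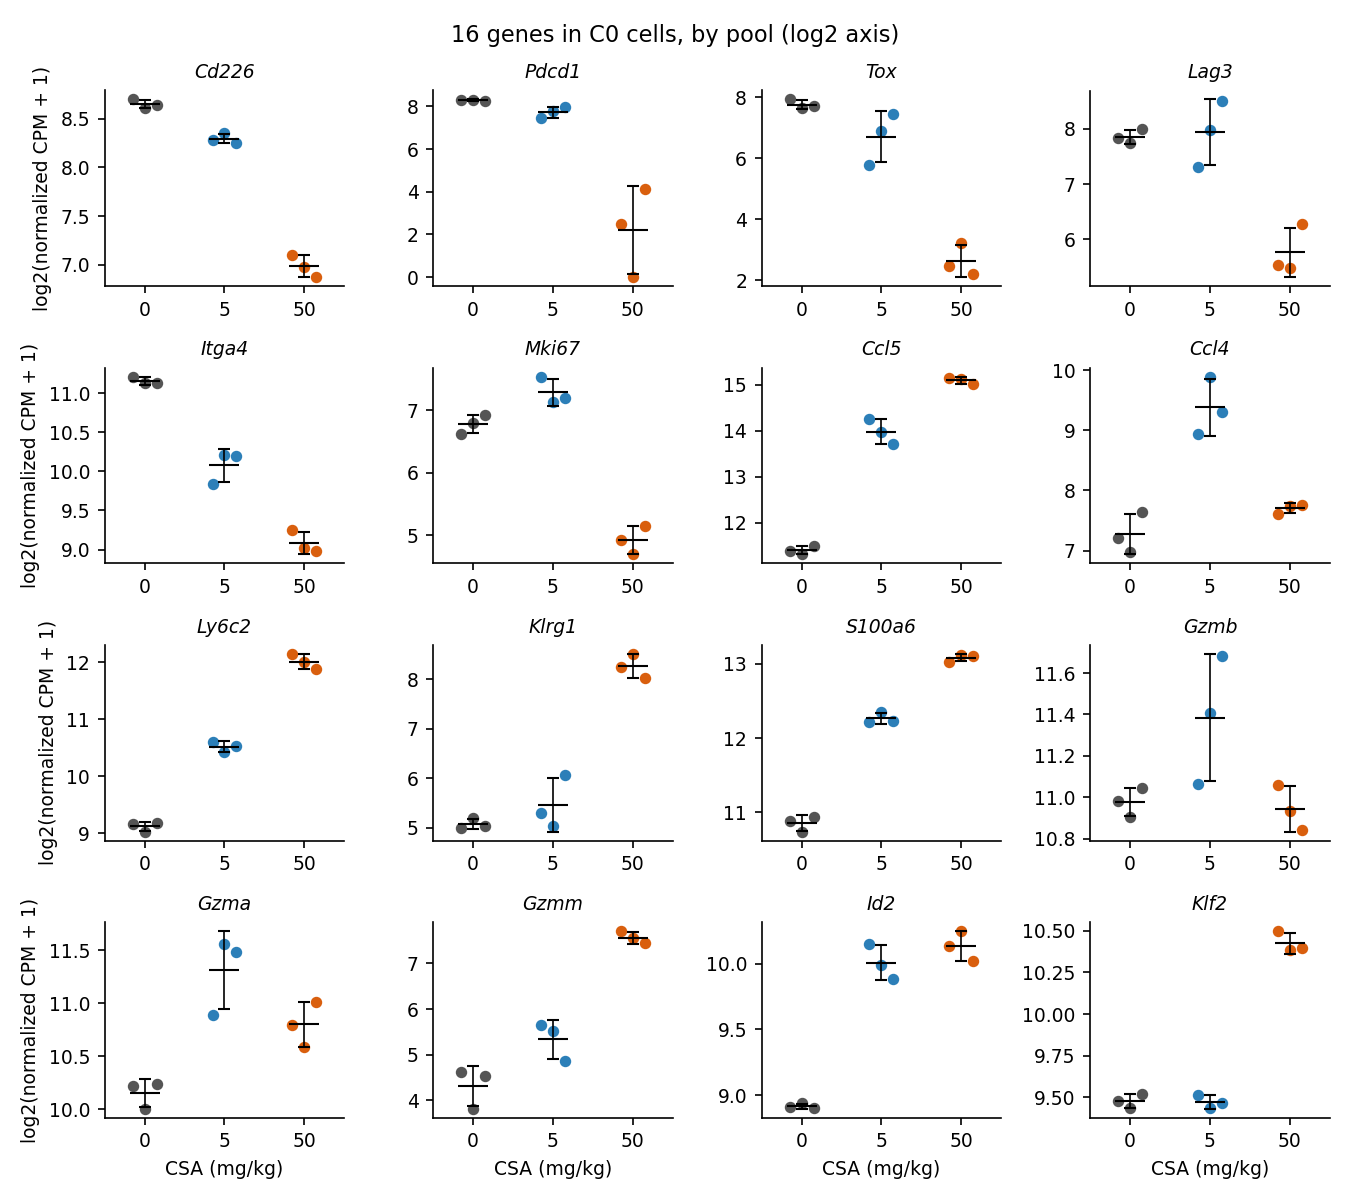
Each panel gives 1 gene in C0 cells, with log2 of normalized CPM plus 1 on the vertical axis (a separate range for each gene, not starting at 0) and the CSA dose in mg/kg (0 is saline) on the horizontal axis; points are pools of 2 mice and lines give mean and SD. Cd226, Pdcd1, Tox and Itga4 fell and Ccl5, Ly6c2 and S100a6 rose at both doses, while Gzmb had 0.45 at 5 mg/kg (0.09 with total-UMI scaling) and -0.03 at 50 mg/kg (-0.59 with that scaling).

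Of 10 transcription factors of effector and exhausted cells, 2 rose and 5 fell, with a median log2 change of -0.18 (1 and 6 with total-UMI scaling). Tox, a factor of exhausted T cells, was at normalized CPM of 244, 200.1 and 209 in saline, 54.5, 117 and 174 at 5 mg/kg and 4.53, 8.28 and 3.64 at 50 mg/kg. The groups did not overlap, and the CSA 5 mg/kg pools were the most spread. The log2 change of Tox at 50 mg/kg was -5.18 (SE 0.24, adjusted p = 2.0e-30). Id2, which favours effector fates, was at 479, 489.8 and 477 in saline, 1134, 1016 and 942 at 5 mg/kg and 1126, 1212 and 1038 at 50 mg/kg, and rose by 1.23 on the log2 scale (adjusted p = 2.4e-28). Prdm1 (Blimp-1) and Ikzf2 (Helios) had log2 changes of -1.85 (adjusted p = 1.0e-08) and -4.36 (adjusted p = 7.7e-11). Tbx21 (T-bet) had a log2 change of 0.04 that did not pass (adjusted p = 0.73) and turned to -0.52 with total-UMI scaling. Eomes had 0.46 (adjusted p = 0.017), which turned to -0.11 with that scaling and did not pass in DESeq2 or without saline pool 3 (0.40) or CSA 50 mg/kg pool 1 (0.35).

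Of 10 genes of calcineurin, NFAT and cyclophilin, 2 rose and 6 fell, with a median of -0.62 (1 and 8, median -1.18, with total-UMI scaling). Nfatc1, the NFAT factor that amplifies its own expression, had a log2 change of -1.25 (adjusted p = 1.3e-16) and Nfatc3 of -0.78 (adjusted p = 1.9e-10). Ppia, which encodes cyclophilin A, the main protein that CSA binds, was at 2271 ± 62.0 normalized CPM in saline and 3623 ± 92.1 at 50 mg/kg, and rose by 0.67 on the log2 scale (adjusted p = 1.1e-21). That rise is to be read beside the shift of -0.56 that total-UMI scaling made in the median of all genes. The calcineurin catalytic subunit genes were unlike each other, with Ppp3cb at -0.81 (adjusted p = 2.8e-06) and Ppp3ca at 0.13 (adjusted p = 0.38), the second turning to -0.43 with total-UMI scaling. Of 9 factors induced by TCR signals, 3 rose and 4 fell, with a median of -0.26 (1 and 6, median -0.82, with total-UMI scaling). The orphan nuclear receptors moved apart, as Nr4a2 fell by 3.47 on the log2 scale (adjusted p = 6.6e-11) and Nr4a1 (Nur77) rose by 2.34 (adjusted p = 5.3e-10), each from a low count of 118 and 25 UMIs in saline. Bhlhe40 and Irf4 had log2 changes of -1.45 (adjusted p = 3.7e-18) and -1.57 (adjusted p = 2.9e-04).

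Genes of cytotoxic granules were mixed, with 6 of 12 rising and 4 falling, and a median of 0.40 that turned to -0.16 (4 and 6 with total-UMI scaling). Gzmb was at normalized CPM of 2025, 1917 and 2111 in saline, 2143, 2714 and 3280.3 at 5 mg/kg and 2135, 1955 and 1833 at 50 mg/kg. The saline and CSA 50 mg/kg pools of Gzmb overlapped, and its log2 change of -0.03 (SE 0.06) did not pass (adjusted p = 0.72), though it was -0.59 (adjusted p = 9.3e-14) with that scaling. Gzma had a log2 change of 0.64 (adjusted p = 7.9e-12), which was 0.07 (adjusted p = 0.37) with that scaling. Gzmm, a granzyme of low level in saline, was at 23.5, 13.05 and 22.1 in saline, 49.1, 45.2 and 27.9 at 5 mg/kg and 207, 186 and 173 at 50 mg/kg and rose by 3.27 (SE 0.16, adjusted p = 2.0e-28). Prf1, the pore-forming perforin, and Fasl, the ligand of the death receptor Fas, had log2 changes of -0.69 (adjusted p = 3.2e-09) and -0.55 (adjusted p = 6.0e-04), whereas Nkg7, a granule membrane protein, had 0.75 (adjusted p = 4.4e-24). In CPM without TMM, Nkg7 was at 2685 ± 114 in saline and 3075 ± 94.9 at 50 mg/kg. Gzmk had 0.17 (adjusted p = 0.063), which turned to -0.39 (adjusted p = 1.5e-05) with that scaling. It passed as a rise with the 2 groups fitted alone (0.20) and without CSA 5 mg/kg pool 1 (0.17), CSA 50 mg/kg pool 2 (0.24) or CSA 50 mg/kg pool 3 (0.22).

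Among 8 cytokine and chemokine genes, 2 rose and 4 fell, with a median of -0.38 (1 and 5, median -0.94, with total-UMI scaling). Ccl5, a chemokine held by memory and effector CD8 cells, was at normalized CPM of 2700.2, 2557 and 2885 in saline, 19423, 16040.0 and 13400.4 at 5 mg/kg and 36305, 35818 and 32946 at 50 mg/kg. The groups were far apart with no overlap, and the change at 50 mg/kg was 3.69 on the log2 scale (SE 0.06, adjusted p = 2.3e-56). In CPM without TMM, the naive cluster C7 was at 2002 ± 525, 2123 ± 487 and 4437 ± 1906, and C0 at 3312 ± 179, 15471 ± 2752 and 29102 ± 1389, in the same order of dose.

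The related chemokine Ccl4 was at normalized CPM of 147, 124 and 198 in saline, 491, 948 and 632 at 5 mg/kg and 194, 212 and 216 at 50 mg/kg. It was highest at the lower dose, where no pool overlapped the other groups. Its log2 change of 0.39 (adjusted p = 0.0062) at 50 mg/kg turned to -0.17 with total-UMI scaling and did not pass in DESeq2 or without saline pool 2 (0.24). Ccl3 fell by 0.46 on the log2 scale (adjusted p = 0.016), a call that was lost in DESeq2 and without saline pool 1 (-0.31), CSA 50 mg/kg pool 1 (-0.41) or CSA 50 mg/kg pool 3 (-0.39). Ccl1 and Xcl1 had 79 and 64 UMIs in saline but 0 at 50 mg/kg, which is at least 18.2-fold and 14.7-fold lower against the floor of 3 UMIs. Ifng, the gene of interferon-γ, had a log2 change of -0.30 that did not pass (adjusted p = 0.082), but passed with total-UMI scaling (-0.86) and without saline pool 2 (-0.45) or CSA 50 mg/kg pool 1 (-0.47). Il2, Il21, Il10, Lta, Csf2 and Ccl9 were too low in C0 to test.

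Of 13 homing and adhesion genes, 6 rose and 5 fell, with a median of -0.04 (4 and 8, median -0.60, with total-UMI scaling). Itga4, the integrin α4 chain that pairs with Itgb1 or Itgb7, was at normalized CPM of 2368, 2238 and 2231 in saline, 911, 1179 and 1173 at 5 mg/kg and 607, 517 and 505 at 50 mg/kg. Each dose lay below the one before with no overlap, and the log2 change at 50 mg/kg was -2.06 (SE 0.06, adjusted p = 2.1e-41). Itgb1 fell by 1.13 on the log2 scale (adjusted p = 3.1e-24) and Cx3cr1 by 2.65 (adjusted p = 2.8e-15). Cxcr3, the receptor of interferon-induced chemokines, rose by 0.94 (adjusted p = 1.1e-17). The sphingosine-1-phosphate receptors moved apart, with S1pr1 at -0.34 (adjusted p = 8.9e-04) and S1pr5 at 1.97 (adjusted p = 3.8e-06). Gpr15, a receptor for homing to the gut, rose from 10 UMIs in saline to 156 at 50 mg/kg (log2 change 4.42, adjusted p = 6.9e-20).

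Ly6 and killer lectin-like receptor genes rose together, 8 of 10, with 2 falling and a median of 1.30 (7 and 2, median 0.73, with total-UMI scaling). Ly6c2, a surface protein of memory and effector CD8 cells whose near-identical neighbour Ly6c1 was too low to test, was at normalized CPM of 572, 520.2 and 575 in saline, 1549, 1364 and 1483 at 5 mg/kg and 4518, 4112 and 3768 at 50 mg/kg. Its groups did not overlap, and its log2 change was 2.90 (SE 0.06, adjusted p = 8.0e-52). Klrg1, a marker of short-lived effector cells, was at 31.0, 35.7 and 31.6 in saline, 38.2, 31.6 and 66.3 at 5 mg/kg and 301, 363 and 260.0 at 50 mg/kg. The CSA 50 mg/kg pools of Klrg1 were above all others, with a log2 change of 3.25 (SE 0.14, adjusted p = 1.7e-32). Among thinned C0 cells, 6.73% ± 0.531 had a Klrg1 UMI in saline and 35.5% ± 3.70 at 50 mg/kg, against 0% and 1.65% ± 0.549 of naive C7 cells. The shares without thinning were 9.46% and 58.8% of C0 cells. Klrk1 (NKG2D) and Klrd1 (CD94) had log2 changes of 1.70 (adjusted p = 3.6e-29) and 1.57 (adjusted p = 1.3e-32), and Klrc2 of -1.61 (adjusted p = 6.2e-08).

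Of 15 genes of lamins, S100 proteins, annexins and galectins, 11 rose and 2 fell, with a median of 1.08 (8 and 3, median 0.51, with total-UMI scaling). S100a6, a calcium-binding protein, was at normalized CPM of 1885, 1707 and 1966 in saline, 4744, 5243 and 4802 at 5 mg/kg and 8366, 8924 and 8799 at 50 mg/kg. It increased with dose without overlap, and its log2 change at 50 mg/kg was 2.23 (SE 0.05, adjusted p = 8.4e-50). S100a4 and S100a10 had log2 changes of 2.39 (adjusted p = 1.4e-37) and 1.78 (adjusted p = 4.2e-44), and Anxa1, which encodes the phospholipid-binding annexin A1, of 2.94 (adjusted p = 1.8e-35). The nuclear lamins went opposite ways, as Lmna rose from 11 UMIs in saline to 150 at 50 mg/kg (log2 change 4.22, adjusted p = 5.2e-18) and Lmnb1 fell by 1.38 (adjusted p = 1.7e-14). Lgals3 fell by 0.67 (adjusted p = 1.4e-14). Of the genes outside the lists with the largest rises, Msc, which encodes the transcription factor musculin, went from 5 to 129 UMIs (log2 change 5.07, adjusted p = 2.9e-19), Ctla2a, a cysteine protease inhibitor, had 3.06 (adjusted p = 1.7e-37), and the lipocalin gene Lcn4 had 2.99 (adjusted p = 1.3e-16).

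Of 13 genes of memory and quiescence, 6 rose and 3 fell, with a median of 0.18 that turned to -0.38 (2 and 8 with total-UMI scaling). Klf2, which maintains S1pr1 in resting cells, was at normalized CPM of 712, 691 and 734 in saline, 731, 691 and 705 at 5 mg/kg and 1445, 1337 and 1346 at 50 mg/kg. Its saline and CSA 5 mg/kg pools overlapped while the CSA 50 mg/kg pools were all higher (log2 change 0.95, SE 0.05, adjusted p = 5.9e-25). Btg1, an antiproliferative gene, rose by 1.04 (adjusted p = 1.2e-21). Tcf7, the factor of stem-like memory cells, fell by 0.52 (adjusted p = 0.032), a call that was lost in DESeq2 and without saline pool 2 (-0.33), CSA 50 mg/kg pool 1 (-0.49) or pool 3 (-0.48). Il7r had -0.20 (adjusted p = 0.1), which passed with total-UMI scaling (-0.76), without cells with 2 strong hashtags (-0.24) and without saline pool 3 (-0.29) or CSA 50 mg/kg pool 3 (-0.32), and Lef1 had 0.03 (adjusted p = 0.80), which turned to -0.53 with total-UMI scaling.

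Of 12 survival and death genes, 5 rose and 3 fell, with a median of 0.15 that turned to -0.42 (1 and 7 with total-UMI scaling). Of all tested genes 28.1% rose and 30.3% fell, so the falls of this list were near the share of any gene. The antiapoptotic Bcl2 was at 104 ± 14.6 normalized CPM in saline and 29.1 ± 0.859 at 50 mg/kg, a log2 change of -1.83 (adjusted p = 2.1e-14). Its antagonist Bcl2l11 (BIM) also fell, by 1.64 (adjusted p = 2.9e-14), while the proapoptotic Bax rose by 1.48 (adjusted p = 4.9e-18).

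Genes of oxidative phosphorylation rose together, 68 of 72 nuclear genes, with 0 falling and a median of 1.20 (57 and 4, median 0.63, with total-UMI scaling). Of 85 ribosomal protein genes, 78 rose and 2 fell, with a median of 1.35 (74 and 4, median 0.78, with total-UMI scaling). The 13 genes of the mitochondrial genome had 6 rises and 0 falls, and their median of 0.27 turned to -0.29 (1 and 10 with total-UMI scaling). Among them mt-Co1 had a log2 change of 0.65 (adjusted p = 5.7e-21), which was 0.09 (adjusted p = 0.068) with that scaling. The 18 glycolysis genes split into 8 rises and 7 falls, and their median of 0.09 turned to -0.48 (2 and 12 with total-UMI scaling). Gapdh had a log2 change of 1.10 (adjusted p = 5.0e-20), the glucose transporter Slc2a3 had -1.26 (adjusted p = 6.7e-11) and Hif1a, a regulator of glycolytic genes, had -1.40 (adjusted p = 2.2e-16). Many ribosomal and glycolytic genes have processed pseudogenes that can take part of their reads. The median mitochondrial share per C0 cell was 1.77 ± 0.0274% in saline and 1.64 ± 0.0837% at 50 mg/kg.

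C0 lay outside the cycling clusters, and the cell cycle transcripts it held fell. Of 20 cell cycle genes 18 fell and 0 rose, with a median of -1.62 (0 and 20 with total-UMI scaling). Mki67 was at normalized CPM of 97.7, 110.5 and 120.1 in saline, 185, 140.0 and 147 at 5 mg/kg and 29.4, 24.8 and 34.5 at 50 mg/kg. Its CSA 50 mg/kg pools were the lowest and its CSA 5 mg/kg pools the highest, and its log2 change at 50 mg/kg was -1.93 (adjusted p = 9.9e-16). Top2a, a topoisomerase of dividing cells, fell by 1.76 (adjusted p = 8.5e-14).

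Histone genes of the replication-dependent clusters made up 8 of the 10 largest falls. Hist1h3e was at normalized CPM of 412, 389 and 413 in saline, 316, 284 and 300.1 at 5 mg/kg and 22.6, 18.6 and 18.2 at 50 mg/kg, with a log2 change of -4.33 (adjusted p = 1.5e-39). The CSA 50 mg/kg pools were far below the rest. Hist1h3f, Hist1h1a, Hist1h2bm, Hist1h2ab, Hist1h3c, Hist1h2be and Hist1h2ak fell by 3.89 to 4.36 on the log2 scale. Of 34 tested genes with such names, a family chosen after these values were seen, 33 fell and 0 rose, with a median of -3.56. Genes of this family are near-identical copies, and most of their transcripts lack the poly(A) tail that the assay primes on.

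Of 14 interferon response genes, 8 rose and 1 fell, with a median of 0.68 (6 and 5, median 0.12, with total-UMI scaling). Isg15, a ubiquitin-like interferon-induced protein, was at normalized CPM of 58.2, 50.5 and 60.8 in saline, 147, 135 and 126 at 5 mg/kg and 189, 169.8 and 116 at 50 mg/kg. The saline pools were below all dosed pools, and its log2 change at 50 mg/kg was 1.53 (adjusted p = 1.8e-15). Ifi27l2a and the transcription factor gene Irf7 had log2 changes of 1.69 (adjusted p = 6.1e-25) and 1.42 (adjusted p = 8.1e-15). Of 12 proteasome and MHC class I genes 8 rose and 2 fell, with a median of 0.67 (6 and 4, median 0.11, with total-UMI scaling), Psmb10 (an immunoproteasome subunit) having 1.11 (adjusted p = 5.4e-20).

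T cell genes moved with dose as well, as all 5 of Cd3d, Cd3e, Cd3g, Cd8a and Cd8b1 rose, with a median of 1.03 (4 and 0 with total-UMI scaling), Cd8b1 having 1.74 (adjusted p = 7.3e-42) and Cd3d 1.31 (adjusted p = 4.6e-34). In CPM without TMM, Cd8a was at 665 ± 16.2 in saline and 629 ± 43.4 at 50 mg/kg. The rise of Cd8a therefore depended on the TMM scaling. Of 8 tested early response genes that can mark handling stress, 5 rose and 2 fell, with a median of 0.60 (2 and 3, median 0.04, with total-UMI scaling), and their summed level over 11 listed genes was 752 to 817 CPM in saline and 742 to 884 at 50 mg/kg. Of the 3 tested naive genes 1 rose and 1 fell, and the list's median of 0.03 turned to -0.53 with total-UMI scaling. Markers of other cell types were summed as well. In order of dose, the 9 B cell genes summed to 193 to 232, 208 to 283 and 306 to 329 CPM, most of it Ighm. Jchain had 0, 0 and 33 UMIs and Igkc 72, 29 and 24 in the same order. The 9 myeloid genes summed to 314 to 340.2, 293 to 514 and 256 to 285 CPM, with Cd14 at 0. Most of it was Cst3 (529, 109 and 443 UMIs), S100a9 (179, 67 and 159) and S100a8 (149, 75 and 132). The 7 erythroid genes summed to 3.22 to 6.72, 3.33 to 20.5 and 21.6 to 38.0 CPM, with Slc4a1 at 0 and the globin gene Hbb-bs at 5, 4 and 36 UMIs. The 5 NK genes summed to 67.6 to 100.2, 56.4 to 129.8 and 15.5 to 22.5 CPM, with Ncr1 at 2 UMIs in all. Fcer1g had 147, 42 and 9 UMIs, Klrb1c 66, 23 and 5 and Tyrobp 33, 8 and 37. The 3 CD4 lineage genes summed to 16.3 to 26.8, 13.3 to 38.9 and 0 to 1.72 CPM, with Cd4 at 0, and the 2 γδ T cell genes to at most 6.07 CPM, with Trdv4 at 0. Cd40lg had 30, 6 and 2 UMIs, Foxp3 29, 13 and 1 and the γδ gene Trdc 6, 0 and 7. Among tested genes of these lists at 50 mg/kg, 1 of 3 B cell genes rose and 1 fell, 1 of 3 myeloid genes rose, 2 of 3 NK genes fell and 1 of 1 CD4 gene fell. Of all tested genes 28.1% rose and 30.3% fell, so 1 of 3 is near the share of any gene. The part of these markers in the changes above was not tested.

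**Figure D4:**
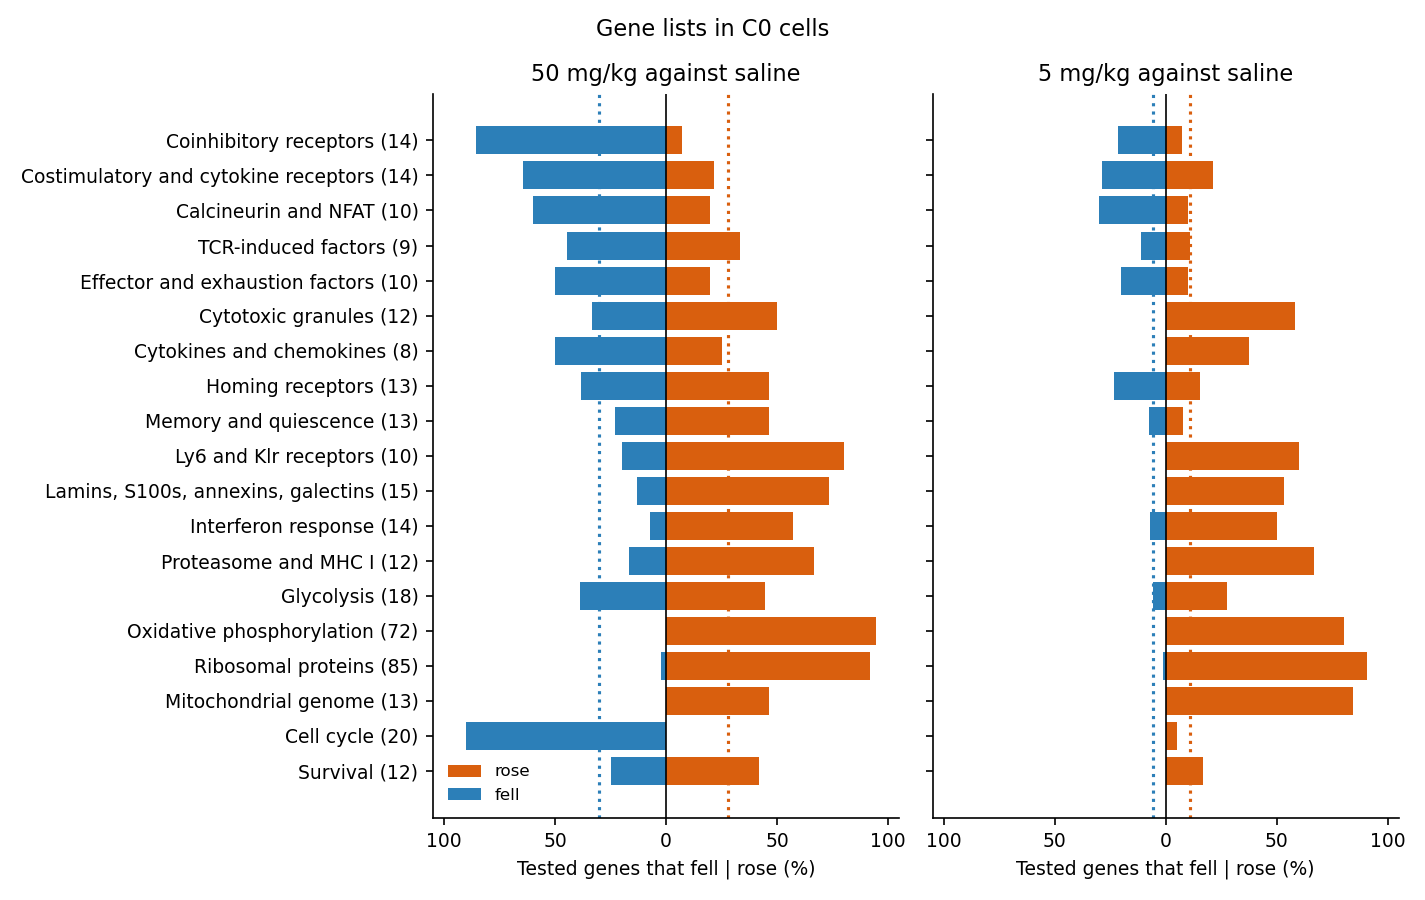
For each gene list (number of tested genes in brackets), bars give the percent of tested genes in C0 that rose (right) or fell (left) at 50 mg/kg and at 5 mg/kg against saline; dotted lines give the percent of all 7919 tested genes. At 50 mg/kg 12 of 14 coinhibitory receptors and 18 of 20 cell cycle genes fell and 68 of 72 oxidative phosphorylation genes rose; the medians of the cytotoxic, memory, mitochondrial genome, glycolysis and survival lists at 50 mg/kg, and those of the TCR-induced, homing, glycolysis, cell cycle and survival lists at 5 mg/kg, change sign with total-UMI scaling.

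Fewer genes passed at the lower dose. At 5 mg/kg against saline, 859 of 7919 genes rose (10.8%) and 450 fell (5.68%) in edgeR, with 765 and 217 in DESeq2 and 425 and 1999 with total-UMI scaling, so that the scaling decided whether more genes rose or fell. The median log2 change was -0.02. Sums of 61 to 77 cells a pool lie behind the CSA 5 mg/kg values, so smaller changes were less detectable than at 50 mg/kg. This comparison shares its saline pools with the one at 50 mg/kg.

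The 10 largest rises at 5 mg/kg held the chemokines Ccl5 and Ccl4, the adaptor gene Hcst, 5 ribosomal protein genes, Atp5k and Dpm3. Ccl5 rose by 2.58 on the log2 scale (SE 0.06, adjusted p = 1.7e-46), Ccl4 by 2.14 (adjusted p = 4.1e-23) and Ccl3, at 77.5 ± 15.7 normalized CPM in saline and 267 ± 58.8 at 5 mg/kg, by 1.79 (adjusted p = 5.7e-15). Of 8 cytokine genes 3 rose and 0 fell (median 0.61; 3 and 0, median 0.24, with total-UMI scaling). Of 12 cytotoxic genes 7 rose and 0 fell (median 0.43; 4 and 2, median 0.06, with total-UMI scaling). Gzmb, a member, rose by 0.45 (SE 0.07, adjusted p = 1.6e-07), though it was 0.09 (adjusted p = 0.34) with total-UMI scaling and CSA 5 mg/kg pool 1 lay just above the highest saline pool. Gzma rose by 1.20 (adjusted p = 5.3e-21). Hcst, which encodes DAP10, the signalling partner of NKG2D, was at normalized CPM of 194, 197 and 172 in saline and 829, 804 and 736 at 5 mg/kg, a log2 change of 2.06 (adjusted p = 5.5e-30). Ly6c2 rose by 1.40 (adjusted p = 1.1e-26) and Id2 by 1.08 (adjusted p = 3.7e-19), while Klrg1 had 0.54 (adjusted p = 0.26). 6 of 10 Ly6 and Klr genes rose and 0 fell (median 0.67; 5 and 1, median 0.31, with total-UMI scaling).

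The ribosomal protein and other genes among these 10 were Rpl38, Rps28, Rpl39, Rps27 and Rps21, with Atp5k, which encodes a subunit of ATP synthase, and Dpm3, a subunit of the enzyme that makes dolichol phosphate mannose. Their log2 changes ran from 1.93 to 2.14. Of 85 ribosomal protein genes 77 rose and 1 fell (median 1.06; 75 and 2, median 0.69, with total-UMI scaling), of 72 oxidative phosphorylation genes 58 rose and 0 fell (median 0.84; 48 and 4, median 0.48, with total-UMI scaling), and of 13 mitochondrial genome genes 11 rose and 0 fell (median 0.42; 2 and 0, median 0.06, with total-UMI scaling). The 18 glycolysis genes had 5 rises and 1 fall (median 0.05, turning to -0.32; 1 and 7 with total-UMI scaling). Interferon response genes had 7 rises and 1 fall among 14 (median 0.78; 5 and 2, median 0.42, with total-UMI scaling), Isg15 having 1.25 (adjusted p = 2.1e-06) and Ifi27l2a 1.75 (adjusted p = 8.3e-21). Of 12 proteasome and MHC class I genes 8 rose and 0 fell (median 0.45; 4 and 1, median 0.08, with total-UMI scaling), and of 15 lamin, S100, annexin and galectin genes 8 rose and 0 fell (median 0.41; 6 and 5, median 0.04, with total-UMI scaling).

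At 5 mg/kg Cd226 fell by 0.36 on the log2 scale (SE 0.11, adjusted p = 0.013), a call that was lost without CSA 5 mg/kg pool 3 (-0.33, adjusted p = 0.11). Pdcd1 fell by 0.51 (SE 0.14, adjusted p = 0.0071), a call that was lost in DESeq2 and without CSA 5 mg/kg pool 1 (-0.41, adjusted p = 0.07). Tox fell by 0.81 (adjusted p = 3.7e-04) and Havcr2 by 0.62 (adjusted p = 0.0049), the second losing its call without CSA 5 mg/kg pool 1 (-0.49). Of the 14 inhibitory receptors 1 rose and 3 fell (median -0.06; 0 and 4, median -0.42, with total-UMI scaling), and of the 14 costimulatory and cytokine receptors 3 rose and 4 fell (median -0.07; 0 and 7, median -0.43, with total-UMI scaling). Il18r1 fell by 0.53 (adjusted p = 2.6e-04), and Tnfrsf9 had -0.02 (adjusted p = 0.98). Itga4 fell by 1.05 (adjusted p = 1.7e-21) and Nfatc3 by 0.73 (adjusted p = 4.8e-05).

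The 10 largest falls at 5 mg/kg held Nfat5, which encodes the tonicity-responsive relative of NFAT, at normalized CPM of 70.4, 75.7 and 74.3 in saline and 38.2, 9.03 and 27.9 at 5 mg/kg (log2 change -1.57, adjusted p = 5.7e-05). They also held Rassf2, Phtf1, Sin3a, Triobp, Tet2, Furin, Klhl9 and Pik3c3, and the histone gene Hist1h2be, with log2 changes of -1.58 to -1.26. Tet2 encodes an enzyme that oxidizes methylated DNA, Sin3a a corepressor scaffold and Furin a protease that matures secreted proteins. Hist1h2be and Klhl9 lost their calls without CSA 5 mg/kg pool 3 (-1.03 and -0.97), and Pik3c3 without pool 2 (-1.004) or pool 3 (-1.03).

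Of 20 cell cycle genes 1 rose and 0 fell at 5 mg/kg, with a median of 0.06 that turned to -0.31 (0 and 5 with total-UMI scaling). The member that rose was Mki67, by 0.49 (adjusted p = 0.033). The call was lost in DESeq2 (0.51), with no filter on low counts (0.43), with total-UMI scaling (0.13), among cells of at least 2000 UMIs (0.30), without cells with 2 strong hashtags (0.27) and without saline pool 1 (0.42), saline pool 2 (0.49), CSA 5 mg/kg pool 1 (0.39) or CSA 5 mg/kg pool 3 (0.55). Of 34 histone genes 9 fell and 0 rose (median -0.44). Homing genes had 2 rises and 3 falls of 13 (median 0.02, turning to -0.35; 1 and 6 with total-UMI scaling), memory and quiescence genes 1 and 1 of 13 (median -0.06; 0 and 6, median -0.43, with total-UMI scaling), calcineurin and NFAT genes 1 and 3 of 10 (median -0.22; 0 and 6, median -0.59, with total-UMI scaling), and effector and exhaustion factors 1 and 2 of 10 (median -0.48; 1 and 5, median -0.84, with total-UMI scaling). Klf2 had a log2 change of -0.01 that did not pass (adjusted p = 0.96), though it was -0.38 (adjusted p = 7.6e-05) with total-UMI scaling.

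Between the 2 doses, 695 genes were higher (8.78%) and 724 lower (9.14%) at 50 mg/kg than at 5 mg/kg, with a median log2 change of -0.01. With total-UMI scaling the split was 301 and 1128. Of the lists, 10 of 14 inhibitory receptors (median -1.81) and 17 of 20 cell cycle genes (median -1.60) were lower at the higher dose and none of either list was higher. Pdcd1 had a log2 change of -5.28 (adjusted p = 4.7e-23), Tox of -4.37 (adjusted p = 2.8e-16), Cd226 of -1.30 (adjusted p = 3.2e-12) and Tnfrsf9 of -2.81 (adjusted p = 1.7e-10). Ccl4 and Ccl3, the chemokines that rose at 5 mg/kg, were lower at 50 mg/kg, with log2 changes of -1.75 (adjusted p = 5.7e-18) and -2.25 (adjusted p = 1.2e-16), whereas Ccl5 was higher by 1.11 (adjusted p = 1.5e-26). Gzmb had -0.48 (adjusted p = 1.0e-07). Klrg1 was higher by 2.72 (adjusted p = 2.5e-17), Ly6c2 by 1.50 (adjusted p = 6.5e-31) and Klf2 by 0.96 (adjusted p = 2.5e-17). Lmna, Msc and Gpr15 had 0 UMIs at 5 mg/kg and 150, 129 and 156 at 50 mg/kg, at least 14.4-fold, 12.4-fold and 14.99-fold higher against a floor of 3 UMIs over the group. The calls fell to 940 among cells of at least 2000 UMIs.

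C1 is the other non-cycling effector cluster, and whether the change at 50 mg/kg differed between C0 and C1 was tested with an interaction term and the pool as a block. A positive difference means a larger rise, or a smaller fall, in C0. Cells of all doses had been assigned to C0 or C1 on these same counts. Genes that decide the split can therefore differ between the clusters by dose through the assignment alone. The adjusted p-values do not account for this, and its part in the differences was not tested. The same limit holds for the comparison with all other CD8 cells below. Of 8074 genes, 1036 had a positive (12.8%) and 368 a negative difference (4.56%) in edgeR, with a median of 0.00. Changes given for a cluster alone come from its own fit and need not subtract exactly to the difference. The split was 671 and 76 in DESeq2, and 538 and 1591 with total-UMI scaling.

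Among called genes of at least 50 CPM in C0 in either group, outside the TCR and immunoglobulin segments, Pdcd1 had the most negative difference, falling by 5.80 on the log2 scale in C0, where C1 had a change of -3.13, a difference of -2.43 (SE 0.37, adjusted p = 3.0e-07). In CPM, Pdcd1 went from 302 ± 40.3 in saline to 28.9 ± 16.8 at 50 mg/kg in C1 and from 379.8 ± 12.6 to 5.80 ± 7.06 in C0. Tox had a difference of -1.45 (SE 0.45, adjusted p = 0.016), a call that was lost without CSA 50 mg/kg pool 3 (-1.03, adjusted p = 0.21). Havcr2 had -0.88 (SE 0.19, adjusted p = 3.0e-04). Other negative differences were in Ifitm1, an interferon-induced membrane protein gene (-1.88), Nrp1, the neuropilin gene (-1.51) and Usp38, a deubiquitinase gene (-1.48). Of the inhibitory receptors 4 of 14 had a negative and 1 a positive difference (median -0.64; with total-UMI scaling 6 negative and 0 positive).

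Among the same genes Isg15 had the most positive difference, 2.99 (SE 0.25, adjusted p = 2.1e-16), with a change of 1.53 in C0 and -1.49 in C1. Ccl5 had 2.35 (SE 0.07, adjusted p = 2.8e-40), with 3.69 in C0 and 1.35 in C1, where C1 held more Ccl5 than C0 in saline (6881 ± 47.5 against 3312 ± 179 CPM) and less at 50 mg/kg (15284 ± 763 against 29102 ± 1389 CPM). Lcn4, Ifi27l2a and the noncoding RNA gene Epb41l4aos had differences of 2.32, 2.31 and 2.16. Id2 had 1.32 (SE 0.08, adjusted p = 4.6e-22) and Gzma 1.26 (SE 0.08, adjusted p = 4.9e-22), as Id2 changed by -0.09 and Gzma by -0.59 in C1. Gzmm had 1.99 (SE 0.35, adjusted p = 7.0e-06) and Ly6c2 1.25 (SE 0.09, adjusted p = 4.1e-19). Of 10 Ly6 and Klr genes 5 had a positive and 0 a negative difference (median 0.43; 3 and 3, median 0.05, with total-UMI scaling). Against all other CD8 cells, 3 had a positive and 1 a negative difference (median 0.09; 3 and 3, median -0.01, with total-UMI scaling).

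Gene groups differed too. 61 of 72 oxidative phosphorylation genes (median 0.90), 77 of 85 ribosomal protein genes (median 1.00), 8 of 14 interferon response genes (median 1.07) and 8 of 12 proteasome and MHC class I genes (median 0.66) had a positive difference, and none of them a negative one. With total-UMI scaling the positive and negative differences of these lists, in the same order, were 48 and 3, 74 and 2, 6 and 1, and 7 and 2. Against all other CD8 cells (below) the medians were smaller. Positive differences were called there in 15 of 72 oxidative phosphorylation (median 0.12) and 55 of 86 ribosomal protein genes (median 0.25). They were also called in 8 of 17 interferon response (median 0.59) and 7 of 12 proteasome and MHC class I genes (median 0.33). Only 1 ribosomal protein gene had a negative one. With total-UMI scaling the splits were 7 and 1, 42 and 4, 8 and 0, and 5 and 0. Against C1, of 20 cell cycle genes 1 had a positive and 1 a negative difference (median 0.03; 0 and 5, median -0.34, with total-UMI scaling). Cd226 had a difference of -0.43 (SE 0.16, adjusted p = 0.048), with -1.65 in C0 and -1.24 in C1. That call was lost in DESeq2 and without saline pool 1 (-0.41), saline pool 3 (-0.36), CSA 5 mg/kg pool 3 (-0.42), CSA 50 mg/kg pool 2 (-0.32) or CSA 50 mg/kg pool 3 (-0.46). Gzmb had -0.04 (adjusted p = 0.78), which passed without saline pool 1 (-0.25) and with total-UMI scaling (-0.42). The integrin chain Itgb1 had -1.18 (SE 0.09, adjusted p = 2.5e-18).

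**Figure D5:**
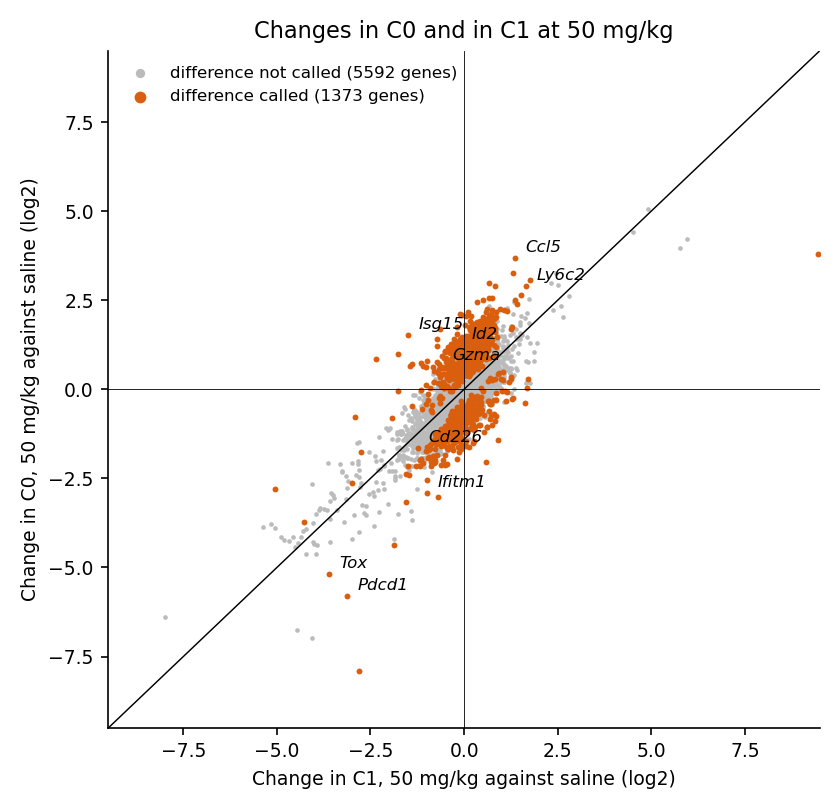
Each point is 1 of 6965 genes, with its log2 change at 50 mg/kg against saline in C1 on the horizontal axis and in C0 on the vertical axis; coloured points are 1373 genes whose difference between the clusters passed the interaction test, grey points are 5592 that did not, and the diagonal marks equal change. Pdcd1 and Tox lie below the diagonal and Isg15 and Ccl5 above it.

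Against all other CD8 cells of the same pools, 305 genes had a positive (3.05%) and 275 a negative difference (2.75%) of 10001 tested, with a median of 0.00 over all genes. The split was 175 and 425 with total-UMI scaling. The other cells were not the same mixture in each group, as the cycling cluster C4 had 1015 saline cells but 81 at 5 mg/kg and 20 at 50 mg/kg. The most negative differences were in genes of dividing cells, Birc5 (survivin, -3.16), Pclaf (a partner of the replication clamp, -2.94), Cks1b (a subunit of cyclin-dependent kinases, -2.37) and Ccna2 (cyclin A2, -2.37). Of 20 cell cycle genes 15 had a negative and 0 a positive difference (median -1.34). With the cycling clusters C2, C3 and C4 left out of the other cells, Birc5, Pclaf, Cks1b and Ccna2 had -1.52, -1.16, -1.07 and -1.37, and Pdcd1, which had -2.29 (SE 0.32, adjusted p = 6.3e-08), had -2.25.

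Among the most positive differences against the other CD8 cells were those in Epb41l4aos (1.47), Isg15 (1.31), Ifi27l2a (1.22) and Lcn4 (1.17). Lcn4 lost its call in DESeq2 and without saline pool 2 (0.81). Cd226 fell by 1.65 in C0, where the other cells had a change of -1.95, and the difference of 0.33 did not pass (adjusted p = 0.067), although it passed without CSA 5 mg/kg pool 3 (0.34). Gzmb had -0.07 (adjusted p = 0.57), and -0.77 (adjusted p = 1.5e-17) with the cycling clusters left out.

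The clones of C0 cells, read from their TCR sequences, were compared across doses. A clonotype was the pair of α and β CDR3 amino acid sequences, the part of the receptor that contacts peptide, and 1362 C0 cells had one. The CDR3 nucleotide sequences of 3 clonotypes, each with the most C0 cells of its pool, are shown as examples of how C0 clones spread over clusters. Capitals mark the first and last codons, those of the conserved cysteine and phenylalanine.
Saline pool 1, α chain: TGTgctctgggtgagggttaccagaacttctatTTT
Saline pool 1, β chain: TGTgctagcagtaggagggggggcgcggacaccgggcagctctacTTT
Saline pool 2, α chain: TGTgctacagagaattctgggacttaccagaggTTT
Saline pool 2, β chain: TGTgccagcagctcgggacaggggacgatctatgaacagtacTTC
CSA 50 mg/kg pool 1, α chain: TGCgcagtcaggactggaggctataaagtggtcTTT
CSA 50 mg/kg pool 1, β chain: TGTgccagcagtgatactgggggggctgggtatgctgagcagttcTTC
The clonotype of saline pool 1 held 10 C0 cells among 60 CD8 cells of that pool, of which 45 were in the cycling clusters C2 to C4, 20 of these in C4, and 3 in C1. A cell with the same pair of nucleotide sequences was also found in each of saline pools 2 and 3, 1 of them with 2 strong hashtags. That of saline pool 2 held 3 C0 cells among 25 CD8 cells, 16 of them cycling, and was 1 of at least 2 clonotypes of that pool with 3 C0 cells, another having 3 CD8 cells and 0 cycling. That of CSA 50 mg/kg pool 1 held 5 C0 cells among 6 CD8 cells, 1 of them cycling.

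Cells of expanded clonotypes, those with at least 2 CD8 cells in the pool, were counted after rarefying each pool to 565 CD8 cells with a clonotype. They made up 23.9, 23.9 and 20.9% of C0 cells in the saline pools, 8.89, 8.05 and 10.4% in the CSA 5 mg/kg pools and 17.6, 9.01 and 11.3% in the CSA 50 mg/kg pools. All saline pools were above all dosed pools, and the doses overlapped each other. Without rarefying, the means were 32.2%, 11.6% and 19.7%. A two-sided exact permutation test for a trend with dose over 1680 assignments of pools gave p = 0.28 and p = 0.42 after Benjamini-Hochberg adjustment over 3 measures, where 0.00119 is the smallest p it can give.

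C0 cells that shared their clonotype with a cycling cluster (C2, C3 or C4) of the same pool made up, without rarefying, 26.8, 27.8 and 22.8% in saline, 6.67, 9.62 and 7.27% at 5 mg/kg and 13.8, 7.04 and 11.7% at 50 mg/kg. These shares can move with the number of cycling cells sampled, which was 629 to 705 with a clonotype per saline pool, 255 to 468 at 5 mg/kg and 391 to 611 at 50 mg/kg, and the part of these numbers was not tested. The saline pools were again the highest, and the exact permutation test of the trend gave p = 0.19 (adjusted p = 0.42). Sharing with C4 alone was 15.2% to 19.9% in saline and 0% to 1.01% in the dosed pools, where C4 held 6 to 18 cells with a clonotype a pool against 275 to 311 in saline. Simpson's index, the chance that a random pair of C0 cells shares a clonotype, was 0.00123 ± 0.000880 in saline, against 0.000224 ± 0.000389 at 5 mg/kg and 0.000628 ± 0.000456 at 50 mg/kg (SD, n = 3 pools, exact permutation p = 0.60, adjusted p = 0.60). The trend test is ordered by dose, and in these 3 measures the mean at 5 mg/kg was the lowest, so saline against dosed pools as such was not tested.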

How the data were processed

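The authors deposited a table of UMI counts per gene and cell (18029 genes, 21204 cells) and a table of CD8 cells with cluster, pool, TCR clonotype, hashtag and antibody UMI counts, and the mitochondrial fraction of UMIs, which reached at most 0.05. Per the submitters' processing notes, Cell Ranger, Seurat 3.0.0 and mm10 were used; a doublet filter by hashtag is not given in the sources used here.

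C0 was summed per pool and tested on the counts with edgeR 4.0.16 in R 4.3.3 (filterByExpr, TMM, quasi-likelihood test, all 9 pools in 1 fit, Benjamini-Hochberg adjusted p of 0.05); interaction tests summed C0 and C1 or the other CD8 cells, with the pool as a block. Clusters entered with at least 10 cells in a pool. No doublet caller was run; cells with 2 strong hashtags were left out as an alternative. Shares with a UMI were thinned to 2000 UMIs by formula. Ratios between clusters used a pseudocount of 0.5 UMIs. The fits were checked on simulated counts in which as many genes rose as fell, by the same log2 amount. Such a check cannot judge the choice between TMM and total-UMI scaling. Alternatives were DESeq2 1.42.0, no filter on low counts, scaling by total UMIs, cells of at least 2000 UMIs, the hashtag number as a block, the 2 groups compared alone, other cells without cycling clusters, and each pool left out.

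Named genes were those of the lists described, the 10 largest rises and falls at each dose among called genes of 50 CPM or more in either group whose pools did not overlap, and the 5 largest differences each way in each interaction test at that level, without TCR and immunoglobulin segments, and the 10 genes highest in C0 against C1. The cluster, lists and rules were chosen with earlier results of these data known. The table of CD4 cells was not used. A few genes that these rules pick are not reported here.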

Additional observations from a re-analysis of the deposited data

Results flagged for a closer look

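The change at 50 mg/kg against saline differed between C0 and other cells of the same pools for 13 named genes. The test was the interaction term of a quasi-likelihood fit in edgeR, Benjamini-Hochberg adjusted. Cells had been assigned to clusters on these same counts, which the test does not account for. The part of that assignment in the differences was not tested. Against C1 the log2 differences, C0 minus C1, were 2.99 for Isg15, 2.35 for Ccl5, 2.32 for Lcn4, 2.31 for Ifi27l2a and 2.16 for Epb41l4aos, and -2.43 for Pdcd1, -1.88 for Ifitm1, -1.51 for Nrp1 and -1.48 for Usp38. Against all other CD8 cells they were 1.47 for Epb41l4aos, 1.31 for Isg15, 1.22 for Ifi27l2a and 1.17 for Lcn4, and -3.16 for Birc5, -2.94 for Pclaf, -2.37 for Cks1b, -2.37 for Ccna2 and -2.29 for Pdcd1. Ifitm1 was at normalized CPM of 184, 284 and 229 in saline, 485, 370.3 and 726 at 5 mg/kg and 34.0, 41.4 and 7.27 at 50 mg/kg in C0, so it was highest at the lower dose and lowest at the higher one. Epb41l4aos, a noncoding gene, and Lcn4 were among the most positive differences in both comparisons, which share the C0 cells, though against the other CD8 cells Lcn4 lost its call in DESeq2 and without saline pool 2 (0.81).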

How the results depend on the processing

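The counts of changed genes stayed within 1.5 times of the reported ones under the alternatives except in these cases. With scaling by total UMIs alone, 2424 genes changed at 5 mg/kg against 1309, and 2129 differed between C0 and C1 against 1404. In DESeq2, 747 genes differed between C0 and C1, and 303 between C0 and the other CD8 cells against 580. Among cells of at least 2000 UMIs, 940 genes differed between the doses against 1419. With the cycling clusters left out of the other CD8 cells, 950 genes differed, 376 of them called in the same direction as before. Leaving out 1 pool at a time gave 4072 to 4733 changed genes at 50 mg/kg, 903 to 1299 at 5 mg/kg, 963 to 1408 between the doses, 1022 to 1416 against C1 and 429 to 644 against the other CD8 cells. It gave differences of 50 mg/kg minus saline of -16.5 to -13.1 percentage points in clone sharing with cycling clusters, -12.8 to -8.47 in expanded clones and -0.000947 to -0.000106 in Simpson's index. With all pools, none of these measures passed the trend test, which is ordered over the doses. The difference of 50 mg/kg against saline was not itself tested. Scaling by total UMIs alone turned the change at 50 mg/kg of Cd27 (-0.0086), Cd160 (-0.12), Tbx21 (-0.52), Eomes (-0.11), Ppp3ca (-0.43), Gzmk (-0.39), Ccl4 (-0.17) and Lef1 (-0.53). Same-numbered pools deviated with correlations of -0.03 to 0.04, and hashtag numbers were not used to pair pools in the main fits. How the pools were prepared cannot be read from these correlations. As a replicate block the hashtag numbers gave 4532, 1263 and 1378 calls at 50 mg/kg, 5 mg/kg and between the doses. The cause was not tested beyond the shift of all genes that the scaling makes by construction. The shallow CSA 5 mg/kg sums limit what that dose can show.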
